A study of Mus musculus with 16 samples.

Results

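A set of 42 genes of DNA replication and mitosis was followed in 16 kidneys. They were chosen by name, and each was matched to the array by the gene that its probe's transcript accession names. All 42 members of the set had a probe, out of 22911 genes with one. The study deleted Fcgr2b, the inhibitory Fc receptor of B cells and myeloid cells, to make a mouse model of lupus, and asked what the loss of Sting, the adaptor for DNA sensing in the cytosol, does to it. RNA of whole kidney from 16 mice of 6 months was hybridised to 16 one-colour Agilent arrays.

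The wild-type group (labelled WT) and the Sting gt/gt group (labelled Sting-ko) were on the C57BL/6 background. The Fcgr2b-/- group (labelled Fcgr2b-ko, and called lupus mouse in the genotype field) and the double-deficient group (labelled Fcgr2b-ko, Sting-ko) were on 129/C57BL/6. Each group held 4 mice. Strain and Fcgr2b genotype therefore cannot be told apart in a comparison with the wild-type mice. The deletion is present in every cell, and the gt allele is a functional knockout of Sting. The Fcgr2b-/- columns of the study's own heat maps are headed as carriers of 1 gt allele, which the sample labels do not state. Wild-type mice were purchased, per the study's methods. Fcgr2b signal, as log2 over the 75th percentile of the array, was 1.14 to 2.13 with wild-type genotype and -0.19 to 1.54 with Sting gt/gt, against 0.02 to 0.70 in the Fcgr2b-/- and -0.40 to 0.50 in the double-deficient mice. The array labelled Sting-ko replicate 4, at -0.19, lay among the Fcgr2b-deficient ones. The Sting probe did not separate the genotypes, and it cannot, because the gt allele leaves the transcript in place. Its signal on the same scale was 2.69, -0.12, -0.27 and 2.49 in Fcgr2b-/- replicates 1 to 4, and at most 1.03 in the mice of the other groups.

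A cell that divides copies its DNA once and then separates the copies. The MCM helicase opens the DNA, nucleotide enzymes supply the bases, and cyclins with their kinase Cdk1 then drive entry into mitosis, where kinetochores, spindle motors and a checkpoint move and count the chromosomes. Many of the mitotic genes are transcribed only late in the cycle, held down at other times by the DREAM complex and switched on by B-MYB and FOXM1 through a short element named the cell cycle genes homology region (CHR), often beside CCAAT boxes. In the adult kidney few cells divide, and in lupus nephritis both resident cells and infiltrating leukocytes may do so.

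The promoters of these genes are shown first, because most mitotic members hold the letters of the CHR, whereas the helicase members Mcm3, Mcm6 and Mcm7 hold CCAAT without them. The contrast is not complete. The helicase members Mcm2 and Mcm5 hold both, and the mitotic members Bub1, Mad2l1, Nuf2 and Nusap1 hold no CHR match. RefSeq windows (build GRCm38.p6) of 250 bases before to 50 after the start were found for 36 of the 42 members. CHR was searched as TTTGAA or TTTAAA, the CCAAT box as CCAAT and an E2F element as TTCCCGC or TTTGGCGC, each on both strands. TTTAAA reads the same on both strands, and no motif contains another. Of the 36 members 26 (72.2%) held a CHR match, against 30.6% of 27025 genes with a window. CCAAT was in 27 of 36 (75%), against 41.1% of all genes, and both motifs were in 22 (61.1%), against 13.4%. E2F letters were in 4 members (11.1%, against 5.79% of all genes), and all 4 of them, Mcm3, Mcm5, Mcm6 and Mcm7, encode subunits of the helicase. A match describes letters in a window and not a bound site.

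The 130 bases before the start are given 5′ to 3′ on the strand of the gene, with CHR, CCAAT and E2F matches in capitals. Cdk1 lies at chr10:69352913-69353042 (minus strand), Ccnb1 at chr13:100786487-100786616 (minus), Cdc20 at chr4:118437344-118437473 (minus), Plk1 at chr7:122159305-122159434 (plus), Ube2c at chr2:164769799-164769928 (plus) and Mcm6 at chr1:128359706-128359835 (minus). The mitotic genes printed here each hold a CHR match, and they are set beside Mcm6, a helicase gene without one.
Cdk1: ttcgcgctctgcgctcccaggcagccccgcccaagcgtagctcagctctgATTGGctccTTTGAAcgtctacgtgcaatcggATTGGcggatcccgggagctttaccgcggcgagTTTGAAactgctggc
Ccnb1: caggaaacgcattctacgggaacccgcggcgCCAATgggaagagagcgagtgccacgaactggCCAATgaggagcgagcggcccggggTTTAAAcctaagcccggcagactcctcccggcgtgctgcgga
Cdc20: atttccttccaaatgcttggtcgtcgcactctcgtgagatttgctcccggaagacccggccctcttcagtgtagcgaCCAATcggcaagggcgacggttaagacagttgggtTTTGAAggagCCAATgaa
Plk1: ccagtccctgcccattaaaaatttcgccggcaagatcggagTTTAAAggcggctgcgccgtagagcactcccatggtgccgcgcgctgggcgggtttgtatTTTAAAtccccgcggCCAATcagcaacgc
Ube2c: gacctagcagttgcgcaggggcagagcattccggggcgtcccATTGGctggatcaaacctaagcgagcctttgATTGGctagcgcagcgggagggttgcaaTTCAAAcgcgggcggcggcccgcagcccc
Mcm6: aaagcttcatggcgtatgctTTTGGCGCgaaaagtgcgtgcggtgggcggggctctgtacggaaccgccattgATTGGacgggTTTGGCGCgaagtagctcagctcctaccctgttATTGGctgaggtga
Counted from the start, the TTTGAA of Cdk1 begins at -71 and again at -15, that of Cdc20 at -18 and that of Ube2c, on the opposite strand, at -29. Mcm6 holds TTTGGCGC at -110 and at -47 and no CHR match.

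Signal is given below relative to the wild-type mean of the same gene, in log2 units, so that 1 is a doubling, and each list of 4 values runs from replicate 1 to replicate 4. Probes entered the tests where no fewer than 4 of the 16 arrays measured them well above background, which held for 41 of the 42 members. The member left out was Ttk, a checkpoint kinase, which was above background on 2 arrays. On all 16 arrays 24 members were above background, and 17 on 4 to 15 of them. Tests are from limma over 35628 probes with Benjamini-Hochberg adjustment, the number after ± is the standard error of the limma estimate unless SD is written, and a gene was called at an adjusted p under 0.05 with a change of at least 2-fold.

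The member genes were high in the kidneys of 2 of the 4 Fcgr2b-/- mice and near wild-type level in the other two. The mean relative signal of all 42 members was 1.63, -0.33, -0.42 and 0.97 in the Fcgr2b-/- mice, against 0.28, -0.57, 0.12 and 0.17 in the wild-type mice. Replicates 1 and 4 lay above every other mouse of the study, whereas replicates 2 and 3 lay inside the wild-type range, so the groups overlap. The score was -0.21, 0.24, -0.02 and -0.29 in the double-deficient mice and 0.05, -0.40, -0.84 and -0.23 in the Sting gt/gt mice. Group means were 0.46 ± 1.0 (SD, n = 4) for Fcgr2b-/-, 0.00 ± 0.39 for wild-type, -0.07 ± 0.24 for double-deficient and -0.36 ± 0.37 for Sting gt/gt. The spread within the Fcgr2b-/- group was thus larger than its distance from any other group.

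In Fcgr2b-/- replicate 1, 27 of the 42 members exceeded the wild-type mean by 2-fold or more, and in replicate 4 it was 26. No more than 6 did in any other mouse, and 24 members did in both of these mice. Replicate 1 had the highest signal of all 16 mice for 30 members and replicate 4 for 3. For 24 members these 2 mice were the 2 highest of the 16. Replicate 1 exceeded replicate 4 for 34 members, and the 8 exceptions were Mcm5, Tyms, Pcna, Plk1, Aurka, Aurkb, Ube2c and Spag5.

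**Figure D1:**
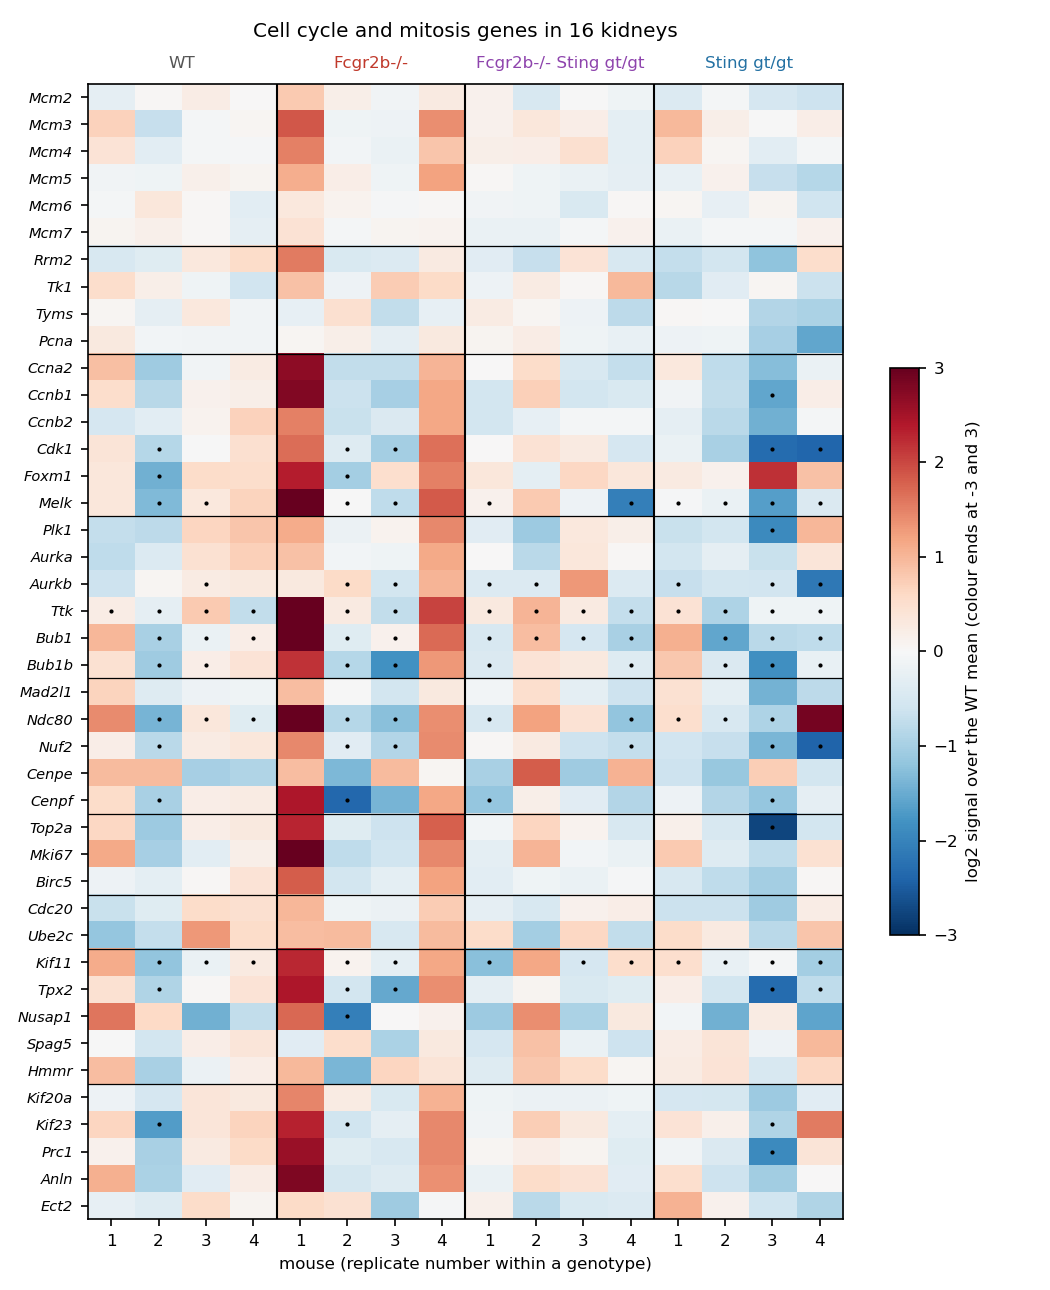
Each row is a member gene, ordered by role and separated by lines, and each column is 1 mouse, in 4 genotypes of 4. Colour gives the log2 signal over the wild-type mean, and a dot marks an array on which the probe was not well above background. Fcgr2b-/- replicates 1 and 4 are red in most rows, where 27 and 26 of the 42 members exceeded the wild-type mean by 2-fold or more.

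The same 2 mice also had higher signal of leukocyte markers and of genes of tubular injury. That signal is given here beside the result, and its part in it was not tested. The paper states that the kidneys were not perfused, so leukocytes of the blood and of the tissue cannot be told apart. The score of 10 myeloid markers was 3.14, 0.83, 0.96 and 2.94 in the Fcgr2b-/- mice and -0.67 to 1.15 in the wild-type mice, and in replicates 1 and 4 at least 9 of the 10 markers were above the wild-type mean. All 10 were above background on every array. Their summed level, in multiples of the array's 75th percentile, ran from 52.9 to 84.9 in the wild-type, 63.8 to 198 in the Fcgr2b-/-, 58.5 to 101 in the double-deficient and 60.9 to 255 with Sting gt/gt. T cell markers scored 2.15, -0.19, -0.44 and 1.42 in the Fcgr2b-/- mice, with 7 of 8 above the wild-type mean in both high mice, and their summed level was 10.1 to 20.8 there against 9.12 to 12.3 in the wild-type, 9.38 to 12.2 in the double-deficient and 9.02 to 11.5 with Sting gt/gt. Genes of tubular injury, among them Havcr1 (KIM-1) and Lcn2, scored 2.96, 0.53, -0.47 and 2.45, with 6 of 7 above the wild-type mean in both high mice, and their summed level was 62.8 to 532 against 73.7 to 211 in the wild-type, 56.2 to 222 in the double-deficient and 47.8 to 179 with Sting gt/gt. The score of 8 proximal tubule genes was -1.64 in Fcgr2b-/- replicate 1 and -0.52 in replicate 4, with none of the 8 above the wild-type mean in either. Those 8 genes were above background on every array, which fits the labelled tissue.

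Adipocyte markers were high in replicate 1 as well. The adipocyte score was 2.54, -1.19, -1.71 and -1.25 in the Fcgr2b-/- mice, and it reached 2.5 in replicate 1 of the wild-type and 1.61 in that of the Sting gt/gt mice. Those other 2 mice with a fat signal had member scores of 0.28 and 0.05. Each was the highest member score of its genotype, as was the 1.63 of Fcgr2b-/- replicate 1. Replicate 4 of the Fcgr2b-/- mice, also high in the members, had an adipocyte score of -1.25. What part fat has in the member signal was not tested. B and plasma cell markers scored 1.28, -0.28, -0.21 and 0.38 in the Fcgr2b-/- mice. They scored 1.67 in wild-type replicate 1 and 1.62 in double-deficient replicate 2, whose member scores, 0.28 and 0.24, came next after those of the 2 high mice, and 1.32 in Sting gt/gt replicate 2, whose member score was -0.40. Cd79a and Blk, of that list, were above background on no array. Neutrophil markers scored 1.74 and 1.17 in Fcgr2b-/- replicates 1 and 4, with 7 of 8 above the wild-type mean in each and Ngp above background nowhere, and glomerular genes scored 1.5 and 0.98. Erythroid genes scored -0.53 to 0.57 over the 16 mice, genes of the thick limb, distal tubule and collecting duct -1.26 to 0.50, lowest in Fcgr2b-/- replicate 1, and adrenal cortex genes -0.62 to 0.34, with Cyp11b1 above background nowhere. Because whole kidney was measured, more dividing cells and more RNA per cell cannot be told apart.

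**Figure D2:**
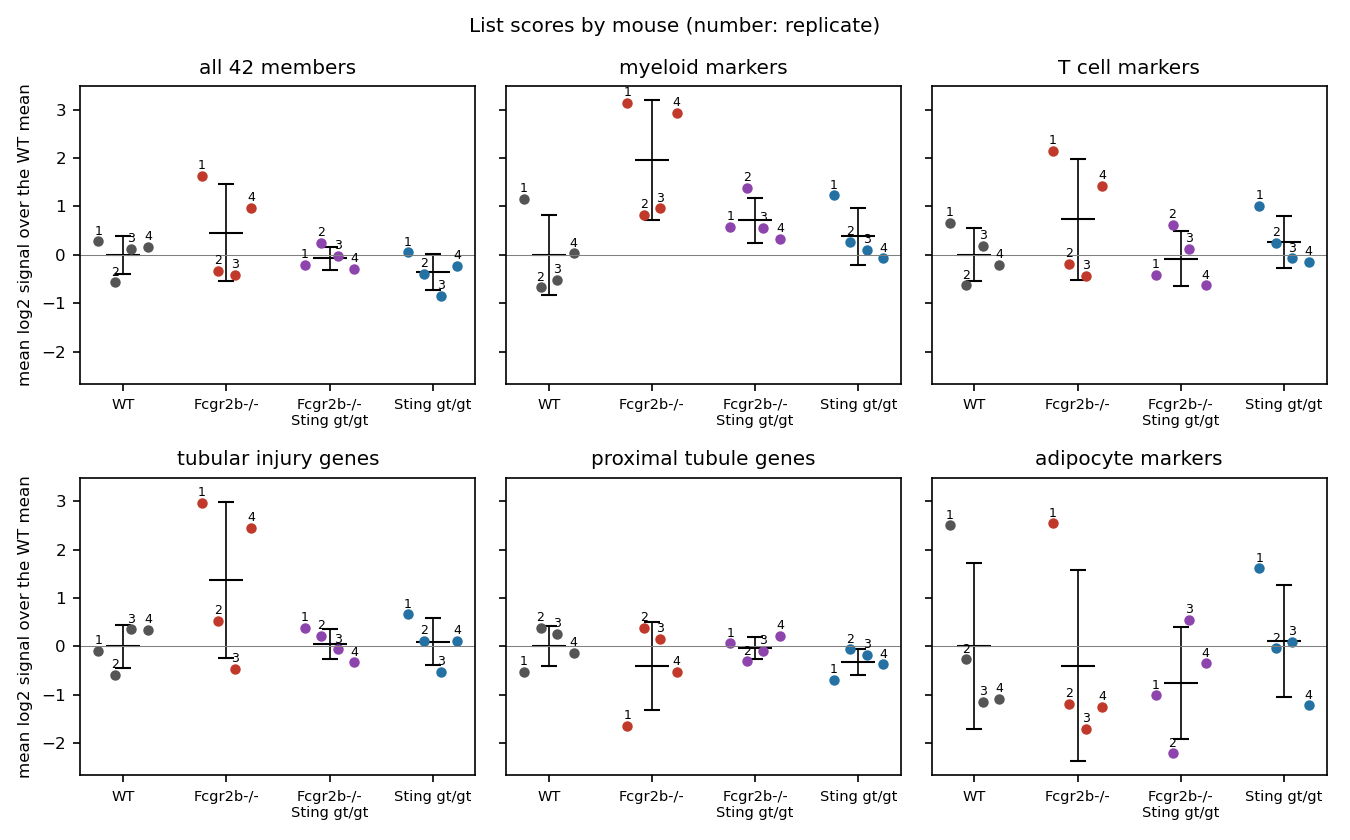
Each panel gives 1 list as the mean log2 signal over the wild-type mean, with a numbered point for each mouse and a bar for the mean and SD of the 4 mice of a genotype. The 2 Fcgr2b-/- mice that were high in the members, replicates 1 (1.63) and 4 (0.97), were also the highest in the myeloid, T cell and tubular injury panels, whereas the adipocyte panel picks out replicate 1 of 3 genotypes.

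Between Fcgr2b-/- and wild-type mice no member was called. Over all probes 18 were (0.0505%). At an unadjusted p under 0.05 there was again no member, where all probes gave 3.35%. The Mann-Whitney test named in the study's methods (2-tailed) called no member either, unadjusted and with the 2-fold threshold. It called 144 of 35624 probes. The difference was positive for 37 of 42 members, with a median of 0.50, beside a median of -0.06 and 43.4% positive over all tested probes. Only 3 members reached 2-fold, namely Bub1, Ttk and Melk. Restricting the list to the 24 members above background everywhere gave a median of 0.38. The median was 0.10 without Fcgr2b-/- replicate 1, 0.31 without replicate 4, 0.83 without replicate 3 and 0.30 without wild-type replicate 2. Without both high mice it was -0.27, and without the 3 arrays high in adipocyte RNA it was 0.16, both choices of arrays made after seeing the data. The arrays lay on 2 slides, and both high mice shared the first. On that slide the median was 1.07 for 3 Fcgr2b-/- against 2 wild-type mice, and on the other it was -0.73 for 1 against 2.

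The replicative helicase, the MCM ring that unwinds DNA ahead of the fork, split into members that followed the 2 high mice and members that did not. Mcm3 stood at 0.69, -0.70, -0.05 and 0.07 in the wild-type, 1.87, -0.12, -0.16 and 1.39 in the Fcgr2b-/-, 0.13, 0.33, 0.19 and -0.30 in the double-deficient and 0.97, 0.17, -0.01 and 0.21 in the Sting gt/gt mice. Its difference between Fcgr2b-/- and wild-type was 0.74 ± 0.44, the largest of the 6, at an adjusted p of 1. Mcm3 has 3 probes, all above background on every array, and they gave 0.60 to 0.74. Mcm5 stood at -0.10, -0.14, 0.16 and 0.09 in the wild-type, 1.1, 0.21, -0.12 and 1.2 in the Fcgr2b-/-, 0.03, -0.13, -0.20 and -0.28 in the double-deficient and -0.22, 0.12, -0.70 and -0.85 in the Sting gt/gt mice. Both high mice lie above all others here, by more than the whole range of the wild-type group, and the difference was 0.60 ± 0.30, with the lowest p of any member in this comparison and an adjusted p of 1. Mcm4, which was 1.51, -0.08, -0.20 and 0.83 in the Fcgr2b-/- mice, and Mcm2, which was 0.79, 0.17, -0.10 and 0.28, had the same 2 mice highest of all 16.

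The probes used for Mcm6 and Mcm7 varied little among all 16 mice. Mcm6 stood at -0.06, 0.34, 0.04 and -0.32 in the wild-type, 0.32, 0.11, -0.03 and 0.04 in the Fcgr2b-/-, -0.11, -0.14, -0.45 and 0.04 in the double-deficient and 0.05, -0.25, 0.08 and -0.60 in the Sting gt/gt mice. Mcm7 stood at 0.09, 0.16, 0.03 and -0.28 in the wild-type, 0.44, -0.07, 0.08 and 0.10 in the Fcgr2b-/-, -0.20, -0.19, -0.07 and 0.14 in the double-deficient and -0.19, -0.07, -0.05 and 0.14 in the Sting gt/gt mice. Values of both probes lie between -0.60 and 0.44, and the differences between Fcgr2b-/- and wild-type were 0.11 ± 0.22 and 0.14 ± 0.20. Second probes, each above background on 15 arrays, varied more. That of Mcm6 gave -0.16 for that difference but -1.09 for Sting gt/gt minus wild-type and 1.09 for double-deficient minus Sting gt/gt, and that of Mcm7 stood at 1.07 in Fcgr2b-/- replicate 1. In cells all 6 subunits act as 1 complex.

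Enzymes of nucleotide supply and the sliding clamp of the polymerase had group scores of 0.57 and 0.23 in Fcgr2b-/- replicates 1 and 4. No other mouse exceeded 0.1, but the single genes differed. Pcna, the clamp, stood at 0.30, -0.08, -0.11 and -0.11 in the wild-type, 0.07, 0.18, -0.26 and 0.30 in the Fcgr2b-/-, 0.09, 0.22, -0.13 and -0.22 in the double-deficient and -0.15, -0.13, -1.0 and -1.57 in the Sting gt/gt mice. Tyms, which makes thymidylate, stood at 0.05, -0.27, 0.32 and -0.10 in the wild-type, -0.25, 0.49, -0.73 and -0.24 in the Fcgr2b-/-, 0.24, 0.06, -0.16 and -0.79 in the double-deficient and 0.03, -0.01, -0.88 and -0.94 in the Sting gt/gt mice. Neither gene set the high mice apart, and Tyms was on the low side of the wild-type mean in both. Rrm2, the inducible subunit of ribonucleotide reductase, stood at 1.55, -0.45, -0.42 and 0.28 in the Fcgr2b-/- mice and thus separated replicate 1 but not replicate 4. Tk1, the thymidine kinase of S phase, stood at 0.89, -0.15, 0.76 and 0.58, where replicate 3 was as high as the high mice. The 4 differences from wild-type ran from -0.18 to 0.52.

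The cyclins of mitosis and Cdk1 set the 2 mice clearly apart, with a group score of 2.38 in replicate 1 and 1.39 in replicate 4 and of -0.58 in each of the others. Ccnb2, a B-type cyclin, stood at -0.50, -0.31, 0.11 and 0.70 in the wild-type, 1.5, -0.67, -0.44 and 1.16 in the Fcgr2b-/-, -0.55, -0.25, -0.07 and -0.06 in the double-deficient and -0.28, -0.82, -1.44 and -0.07 in the Sting gt/gt mice. Ccna2, the A-type cyclin of S phase and mitotic entry, stood at 0.91, -1.06, -0.10 and 0.25 in the wild-type, 2.68, -0.74, -0.73 and 1.01 in the Fcgr2b-/-, 0.02, 0.54, -0.47 and -0.71 in the double-deficient and 0.31, -0.76, -1.27 and -0.19 in the Sting gt/gt mice. Replicate 1 was therefore 6.40-fold above the wild-type mean for Ccna2 and 2.83-fold for Ccnb2. Ccnb1 was 2.78, -0.64, -1.0 and 1.15 in the Fcgr2b-/- mice, and Cdk1, the kinase these cyclins switch on, was 1.68, -0.38, -1.01 and 1.66, where the 2 low values were not well above background.

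The regulators Foxm1 and Melk were high in the same mice, Melk with few arrays above background. Melk, a kinase linked to dividing progenitors, was above background on 6 arrays and stood at 0.34, -1.32, 0.32 and 0.66 in the wild-type, 3.28, -0.02, -0.77 and 1.85 in the Fcgr2b-/-, 0.12, 0.78, -0.15 and -2.05 in the double-deficient and -0.03, -0.20, -1.65 and -0.44 in the Sting gt/gt mice. Its difference between Fcgr2b-/- and wild-type was 1.08 ± 0.80. Foxm1, the transcription factor of G2 and mitosis, stood at 0.34, -1.44, 0.56 and 0.53 in the wild-type, 2.35, -1.03, 0.50 and 1.51 in the Fcgr2b-/-, 0.35, -0.29, 0.63 and 0.34 in the double-deficient and 0.26, 0.14, 2.19 and 0.88 in the Sting gt/gt mice. Sting gt/gt replicate 3, with 2.19, broke the pattern, since it had the lowest score of all 42 members together, -0.84, and the second highest Foxm1.

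Mitotic kinases had a group score of 1.82 and 1.44 in the 2 high mice and of -1.0 to 0.35 in all others. Aurka, the kinase of the spindle poles, stood at -0.76, -0.40, 0.45 and 0.71 in the wild-type, 0.88, -0.08, -0.13 and 1.14 in the Fcgr2b-/-, 0.00, -0.82, 0.34 and 0.04 in the double-deficient and -0.55, -0.27, -0.66 and 0.37 in the Sting gt/gt mice. Plk1, which acts from mitotic entry to cytokinesis, stood at -0.71, -0.78, 0.64 and 0.84 in the wild-type, 1.12, -0.18, 0.10 and 1.43 in the Fcgr2b-/-, -0.34, -1.08, 0.32 and 0.18 in the double-deficient and -0.67, -0.55, -1.92 and 1.0 in the Sting gt/gt mice. For both, replicate 4 was above replicate 1, and Sting gt/gt replicate 4 reached 1.0 for Plk1. Aurkb, the kinase of the chromosomal passenger complex, is described with the Sting gt/gt mice below.

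The checkpoint kinases were measured near background. Bub1, which gathers checkpoint proteins at the kinetochore, was above background on 4 arrays, of which 2 were the high Fcgr2b-/- mice, and stood at 1.0, -0.98, -0.21 and 0.19 in the wild-type, 3.35, -0.37, 0.14 and 1.71 in the Fcgr2b-/-, -0.48, 0.93, -0.50 and -0.97 in the double-deficient and 1.07, -1.56, -0.81 and -0.76 in the Sting gt/gt mice. Its Fcgr2b-/- minus wild-type difference, 1.21 ± 0.75, was the largest of all members at an adjusted p of 1. In no double-deficient mouse was Bub1 well above background. Ttk, the kinase known as MPS1, stood at 3.09, 0.28, -0.73 and 2.02 in the Fcgr2b-/- mice, with replicates 1 and 4 the only 2 arrays above background. All 3 of its probes had these 2 mice above the wild-type mean, but the other probes were above background on only 1 array and on 0 arrays. Bub1b, or BUBR1, was 2.17, -0.86, -1.81 and 1.3.

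Kinetochore genes were less uniform. Mad2l1, the checkpoint protein that holds back anaphase, stood at 0.67, -0.38, -0.15 and -0.14 in the wild-type, 0.93, -0.02, -0.54 and 0.30 in the Fcgr2b-/-, -0.08, 0.50, -0.30 and -0.62 in the double-deficient and 0.45, -0.30, -1.42 and -0.78 in the Sting gt/gt mice. Replicate 1 was the highest mouse and replicate 4, at 0.30, lay inside the wild-type range. Nuf2, of the NDC80 complex that grips microtubules, was 1.44, -0.34, -0.88 and 1.41 in the Fcgr2b-/- mice, and its partner Ndc80 was 3.14, -0.86, -1.25 and 1.39. Sting gt/gt replicate 4, however, reached 2.86 for Ndc80 and -2.41 for Nuf2, and the Nuf2 value was not well above background. Cenpf, a large kinetochore protein of G2, was 2.42, -2.35, -1.39 and 1.16, so that its mean difference from wild-type was -0.04 although replicates 1 and 4 were the 2 highest mice of the study. Its second probe gave 0.52.

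Chromosome genes and the passenger protein survivin carried the pattern, with Mki67 and Birc5 above background on every array. Mki67, the antigen that marks cycling cells, stood at 1.14, -1.0, -0.32 and 0.17 in the wild-type, 3.23, -0.77, -0.60 and 1.45 in the Fcgr2b-/-, -0.30, 1.02, -0.09 and -0.21 in the double-deficient and 0.79, -0.39, -0.77 and 0.45 in the Sting gt/gt mice. Replicate 1 was 9.35-fold and replicate 4 2.73-fold above the wild-type mean, while replicates 2 and 3 were below it. Birc5, which encodes survivin, stood at -0.16, -0.29, 0.03 and 0.42 in the wild-type, 1.82, -0.56, -0.30 and 1.21 in the Fcgr2b-/-, -0.31, -0.14, -0.20 and -0.03 in the double-deficient and -0.48, -0.77, -1.02 and 0.04 in the Sting gt/gt mice. Top2a, the topoisomerase that untangles sister chromatids, was 2.29, -0.37, -0.61 and 1.79 in the Fcgr2b-/- mice. The differences from wild-type were 0.83 ± 0.74 for Mki67, 0.54 ± 0.43 for Birc5 and 0.78 ± 0.69 for Top2a, none at an unadjusted p under 0.05.

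**Figure D3:**
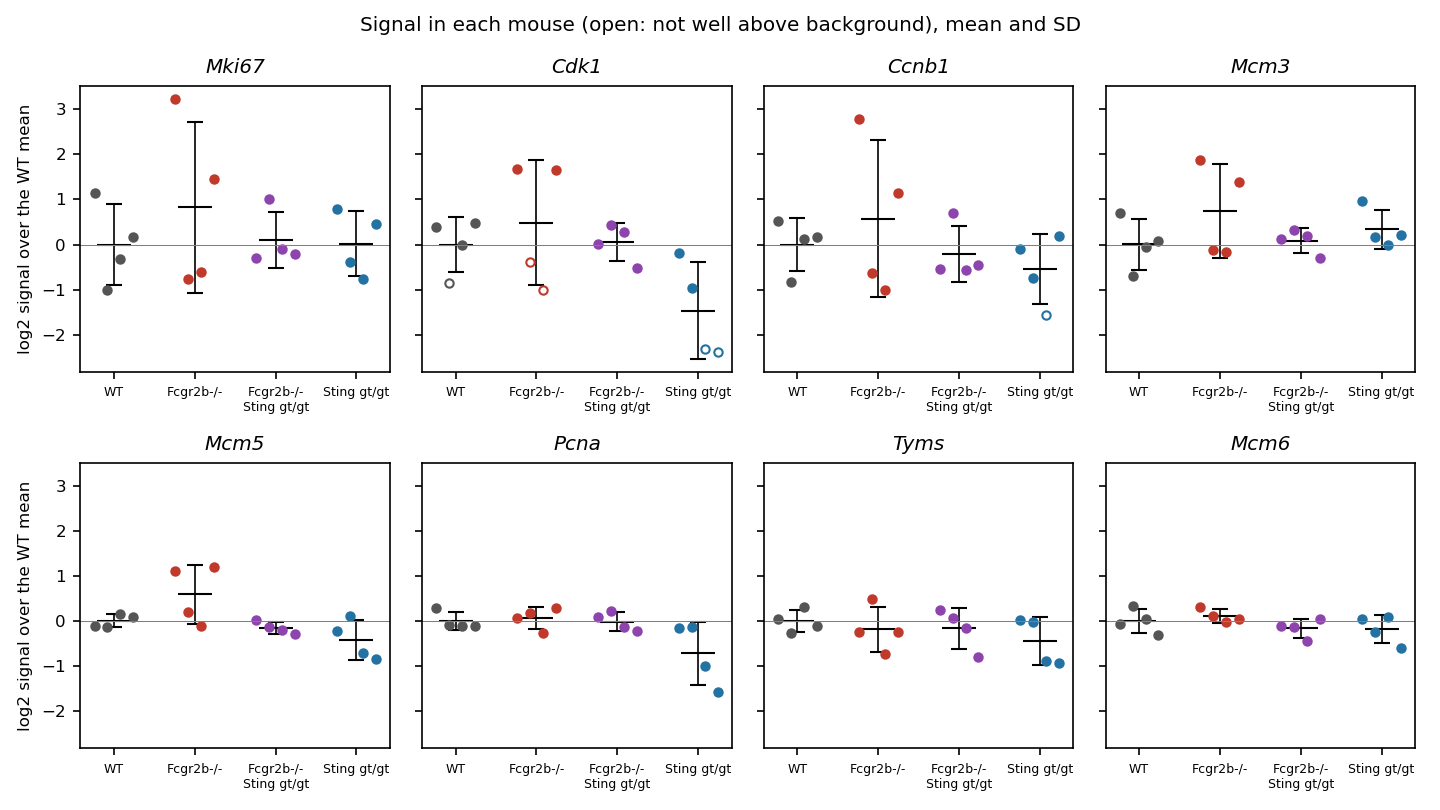
The log2 signal over the wild-type mean of 8 members is given for each mouse, with the mean and SD of each genotype, and an open point marks an array not well above background. Mki67, Cdk1, Ccnb1, Mcm3 and Mcm5 have 2 high Fcgr2b-/- mice and 2 at wild-type level, Pcna and Tyms have low points among the Sting gt/gt mice instead, and the Mcm6 probe used stays within -0.60 and 0.34.

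Cdc20, which activates the anaphase-promoting complex, stood at -0.66, -0.37, 0.54 and 0.49 in the wild-type, 0.99, -0.12, -0.17 and 0.76 in the Fcgr2b-/-, -0.26, -0.49, 0.12 and 0.21 in the double-deficient and -0.64, -0.65, -1.06 and 0.22 in the Sting gt/gt mice. Ube2c, the conjugating enzyme of that complex, stood at -1.15, -0.71, 1.3 and 0.56 in the wild-type, 0.93, 0.95, -0.49 and 0.96 in the Fcgr2b-/-, 0.56, -1.03, 0.61 and -0.74 in the double-deficient and 0.54, 0.28, -0.81 and 0.83 in the Sting gt/gt mice. Cdc20 had the 2 high mice on top by a small margin, with 0.99 and 0.76 against at most 0.54 elsewhere. On its second probe, above background on all 16 arrays, these mice stood at 0.27 and 0.73. Ube2c divided the mice in another way, which is taken up below.

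Spindle genes held both followers of the 2 high mice and exceptions. Spag5, or astrin, stood at -0.02, -0.54, 0.20 and 0.37 in the wild-type, -0.34, 0.53, -0.95 and 0.30 in the Fcgr2b-/-, -0.50, 0.88, -0.19 and -0.61 in the double-deficient and 0.22, 0.38, -0.16 and 0.97 in the Sting gt/gt mice. Hmmr, a spindle-binding protein, stood at 0.93, -0.97, -0.17 and 0.20 in the wild-type, 0.98, -1.38, 0.64 and 0.38 in the Fcgr2b-/-, -0.39, 0.81, 0.55 and 0.05 in the double-deficient and 0.25, 0.41, -0.49 and 0.61 in the Sting gt/gt mice. Neither gene separated the 2 high mice, and Spag5 was highest in Sting gt/gt replicate 4 and double-deficient replicate 2. Tpx2, which brings Aurora A to the spindle, was 2.43, -0.54, -1.54 and 1.4 in the Fcgr2b-/- mice, and Kif11, the motor that pushes the poles apart, was 2.26, 0.10, -0.30 and 1.16 but above background on 4 arrays. For Hmmr the probe used was the brightest of 3, and the dimmer ones stood at 3.04 and 2.62 in replicate 1, where it stood at 0.98.

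Of the genes of the midzone and of cytokinesis, Prc1, Anln and Kif20a had the 2 high mice on top, and Ect2 and Kif23 did not. Prc1, which bundles the microtubules of the midzone, stood at 0.13, -0.97, 0.26 and 0.58 in the wild-type, 2.59, -0.37, -0.47 and 1.44 in the Fcgr2b-/-, 0.07, 0.20, 0.09 and -0.37 in the double-deficient and -0.10, -0.44, -1.92 and 0.38 in the Sting gt/gt mice. Ect2, the exchange factor that positions the furrow, stood at -0.25, -0.39, 0.55 and 0.08 in the wild-type, 0.58, 0.46, -1.07 and -0.04 in the Fcgr2b-/-, 0.16, -0.82, -0.46 and -0.41 in the double-deficient and 1.04, 0.12, -0.59 and -0.91 in the Sting gt/gt mice. For Ect2 Sting gt/gt replicate 1 was the highest mouse on the probe used. A second Ect2 probe, above background on all 16 arrays, stood at 1.12 in Fcgr2b-/- replicate 1. It gave 0.84 for Sting gt/gt minus wild-type and -1.18 for double-deficient minus Sting gt/gt, where the probe used gave -0.09 and -0.30. Anln, or anillin, was 2.79, -0.53, -0.38 and 1.38 in the Fcgr2b-/- mice and Kif20a was 1.46, 0.25, -0.45 and 1.05. Kif23, a motor of the midzone, was 2.31, -0.60, -0.28 and 1.44, and Sting gt/gt replicate 4, with 1.56, lay above the second of the high mice. Kif20a differed from wild-type by 0.58 ± 0.35, at an adjusted p of 1.

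No kidney of the double-deficient mice had the high member signal of the 2 Fcgr2b-/- mice. No member was called between double-deficient and Fcgr2b-/- mice in limma, as for all probes (0%), and 1 member passed at an unadjusted p, where all probes gave 1.81%. The unadjusted Mann-Whitney test with the 2-fold threshold called no member, and 41 of 35622 probes. The animal labels of these genotypes share a first number in 2 pairs, Fcgr2b-/- replicate 3 with double-deficient replicate 4 (correlation of their deviations over probes 0.67) and replicate 4 with replicate 3 (0.37). Wild-type replicates 3 and 4 share a first number with each other as well. What the number marks is not stated. With that number as a random block 5 members had an unadjusted p under 0.05 and still none was called, while the count over all probes went from 645 to 3611. Of the 42 differences 38 were negative, with a median of -0.57 beside 0.06 over all tested probes. The member with the unadjusted p was Mcm5, with -0.74 ± 0.30 (adjusted p = 1), and its values of 0.03, -0.13, -0.20 and -0.28 in the double-deficient mice overlap 1.1, 0.21, -0.12 and 1.2 in the Fcgr2b-/- mice. Without Fcgr2b-/- replicate 4 its unadjusted p was no longer under 0.05. Bub1 (-1.46 ± 0.75, with no double-deficient array well above background) and Melk (-1.41 ± 0.80) had the largest differences with a test, and Ttk, which was not tested, gave -0.94. This comparison shares its Fcgr2b-/- mice with the one above, so the 2 high mice set the sign of both. The median was 0.24 without them, -0.97 on the first slide (1 double-deficient against 3 Fcgr2b-/- mice) and 0.32 on the second (3 against 1).

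Double-deficient and wild-type mice lay close together. No member was called, none of all probes was (0%), and no member had an unadjusted p under 0.05 where all probes gave 0.424%. The unadjusted Mann-Whitney test with the 2-fold threshold called no member either, and 63 of 35622 probes. The median of the 42 differences was -0.11 beside 0.00 over all probes, and 29 were negative. Cenpf (-0.56 ± 0.78), Ect2 (-0.38 ± 0.43) and Melk (-0.33 ± 0.80) were farthest from 0, each by less than its standard error. Within the slides the median was 0.04 on the first and -0.26 on the second. A p that misses the threshold does not show that the groups were alike, and with 4 mice a group the standard errors of single members ran from 0.20 to 0.98.

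**Figure D4:**
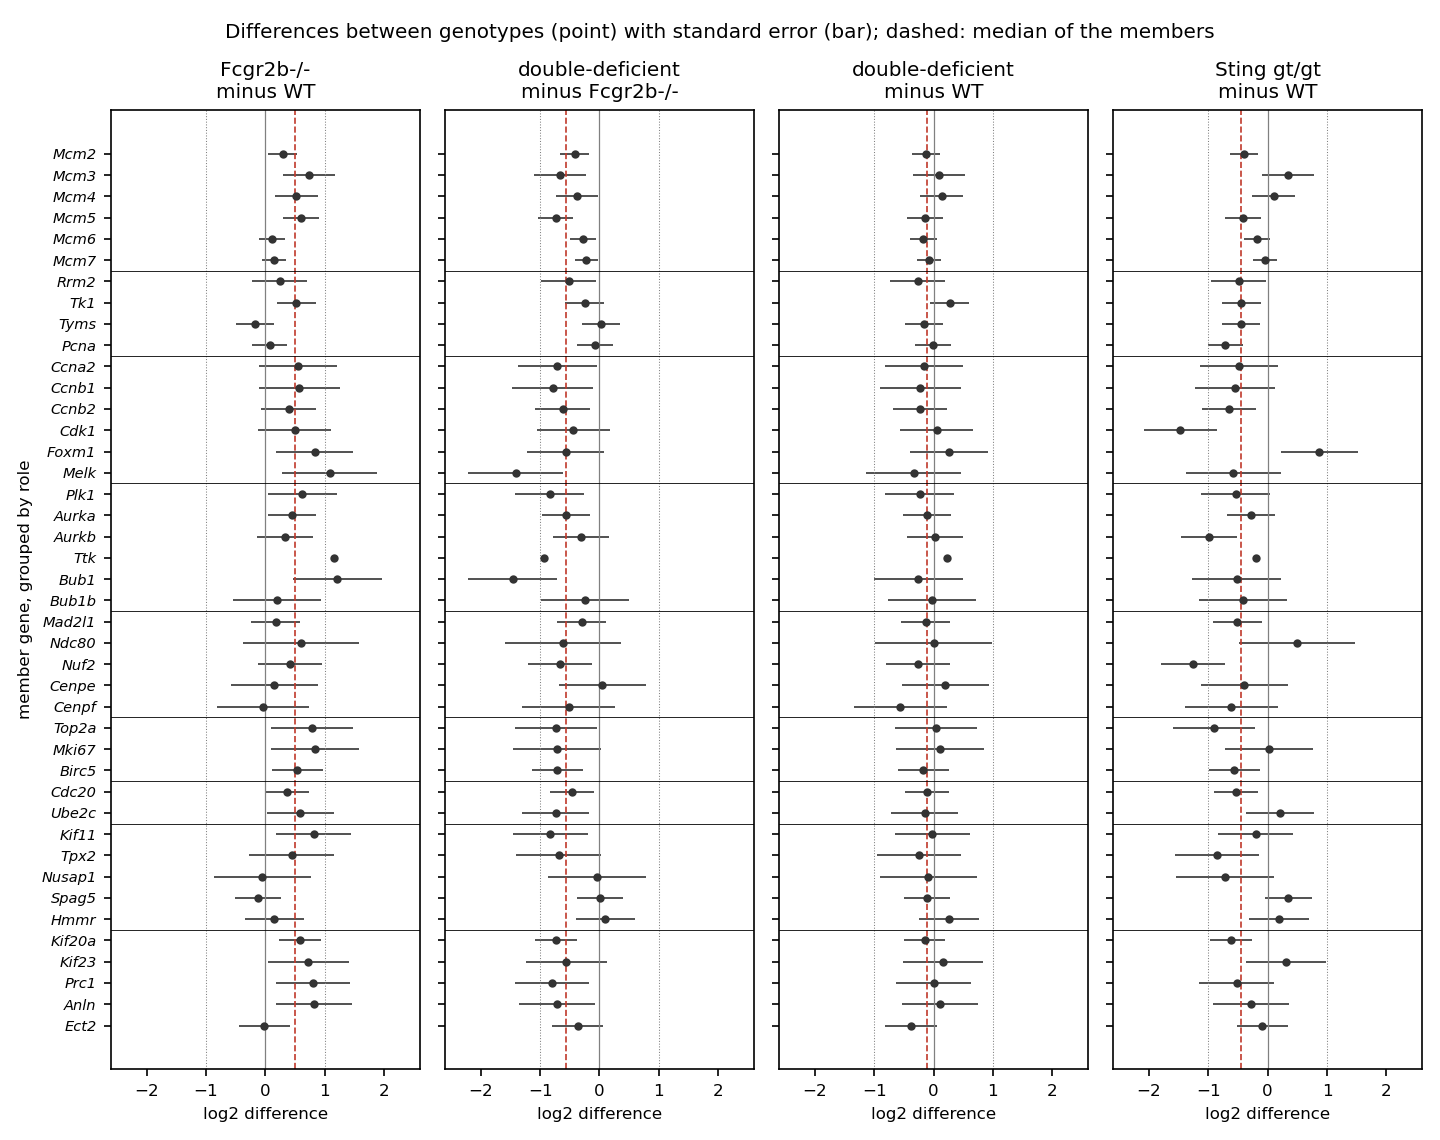
Points give the limma log2 difference of each member between 2 genotypes, grouped by role, with bars for the standard error (Ttk was not tested and has none), dotted lines at 2-fold and a dashed line at the median of the 42 members. The medians are 0.50, -0.57, -0.11 and -0.45 from left to right, and 37 of 42 points lie above 0 in the first panel and 38 of 42 below 0 in the second.

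Mean signal of most members was lower in the Sting gt/gt than in the wild-type mice, with the lowest p for Pcna, Cdk1 and Nuf2, though none was called. These differences depended on the slide and on single arrays, as given below. Over all probes 0% were called, and 3 members had an unadjusted p under 0.05, all lower, where all probes gave 3.76%. The unadjusted Mann-Whitney test with the 2-fold threshold called no member, and 127 of 35621 probes. Of 42 differences 33 were negative, with a median of -0.45 beside 0.00 over all tested probes. Pcna was -0.15, -0.13, -1.0 and -1.57 in the Sting gt/gt mice and 0.30, -0.08, -0.11 and -0.11 in the wild-type mice. These ranges do not overlap, though the nearest values almost touch, and the difference was -0.71 ± 0.30 (adjusted p = 0.732). Over all probes 727 of 35621 had an unadjusted Mann-Whitney p under 0.05, which with 4 against 4 mice needs such a separation. Pcna was the only member to show it, so the separation is not a result about the members. Cdk1 stood at 0.39, -0.86, -0.01 and 0.47 in the wild-type, 1.68, -0.38, -1.01 and 1.66 in the Fcgr2b-/-, 0.02, 0.43, 0.28 and -0.51 in the double-deficient and -0.19, -0.97, -2.32 and -2.38 in the Sting gt/gt mice. Its difference was -1.47 ± 0.62 (adjusted p = 0.732), and the values of Sting gt/gt replicates 3 and 4 were not well above background. Nuf2 stood at 0.21, -0.81, 0.25 and 0.35 in the wild-type, 1.44, -0.34, -0.88 and 1.41 in the Fcgr2b-/-, 0.04, 0.26, -0.62 and -0.71 in the double-deficient and -0.57, -0.70, -1.37 and -2.41 in the Sting gt/gt mice, a difference of -1.26 ± 0.54 (adjusted p = 0.732).

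Without the array labelled Sting-ko replicate 4, whose Fcgr2b signal was low, the differences were -0.43 for Pcna, -1.16 for Cdk1 and -0.88 for Nuf2, and none had an unadjusted p under 0.05. On leaving out each of the 16 arrays in turn, the unadjusted p stayed under 0.05 in 13 cases for Pcna, 11 for Cdk1 and 11 for Nuf2. Replicates 3 and 4 were also the arrays with the lowest Tyms of the group (0.03, -0.01, -0.88 and -0.94), and the 75th percentile of their signal, 319.2 and 278.9, was the lowest of the 16 arrays (276 to 656.9) but for Fcgr2b-/- replicate 2. Aurkb, the next in size, was -0.70, -0.54, -0.58 and -2.15 in the Sting gt/gt mice, with a difference of -0.99 ± 0.47. The 3 Sting gt/gt values of Aurkb from replicates 1, 3 and 4 were not well above background. Foxm1 went the other way, with 0.87 ± 0.65. On the first slide the median of the members was -0.09 (2 against 2 mice) and on the second it was -0.79 (2 against 2), and it was -0.23 without Sting gt/gt replicate 3, -0.28 without wild-type replicate 1 and -0.18 with normexp background correction.

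Between double-deficient and Sting gt/gt mice, which differ in Fcgr2b and in strain, 4 members had an unadjusted p under 0.05, all higher in the double-deficient mice, where all probes gave 3.05%. None was called, nor was any probe (0%). They were Cdk1 (1.52 ± 0.62), Pcna (0.70 ± 0.30), Tk1 (0.71 ± 0.33) and Aurkb (1.01 ± 0.47), each with an adjusted p of 0.885. Cdk1, Pcna and Aurkb were also the members at the lower end in Sting gt/gt against wild-type, and those comparisons share the Sting gt/gt mice. Aurkb was -0.41, -0.42, 1.31 and -0.40 in the double-deficient mice, all above the Sting gt/gt mice. It was the 1 member called by the unadjusted Mann-Whitney test with the 2-fold threshold (0.48% of all probes). Kif20a did not overlap between these groups either, but its difference of 0.47 was below 2-fold. Without the fold threshold, 758 of 35619 probes had an unadjusted Mann-Whitney p under 0.05. With 4 against 4 mice that p needs ranges that do not overlap. Tk1 was -0.16, 0.24, 0.03 and 0.97 in the double-deficient and -0.84, -0.35, 0.06 and -0.64 in the Sting gt/gt mice. Nuf2, at 1.01 ± 0.54, was among the largest in size without passing that threshold. The median of the 42 differences was 0.30 beside 0.01 over all probes, and it was 0.09 without Sting gt/gt replicate 3, 0.16 without double-deficient replicate 2 and 0.08 with normexp background correction. On the first slide it was 0.04 (1 against 2 mice) and on the second 0.51 (3 against 2). Without the array labelled Sting-ko replicate 4, Cdk1 and Pcna no longer had an unadjusted p under 0.05, nor had Tk1 without double-deficient replicate 4 or Aurkb without double-deficient replicate 3.

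The interaction asks whether loss of Fcgr2b did the same with and without Sting. No member was called, no probe was (0%), and no member had an unadjusted p under 0.05 where all probes gave 6.27%. The largest estimates were -1.44 ± 0.93 for Foxm1, -1.1 ± 1.39 for Ndc80 and 1.03 ± 0.88 for Cdk1, and the median was -0.17. This estimate moves with the 2 high mice, since its median was 0.61 without them.

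Ube2c was low and Cenpe high in the mice with Y-linked RNA, a division that cuts across the genotypes. For Cenpe 1 mouse without Y-linked RNA was high too. Messenger RNA of 4 Y-linked genes was well above background in 6 mice and in none of the other 10, and the labels give no sex. The 6 were 2 of 4 wild-type, 1 of 4 Fcgr2b-/-, 2 of 4 double-deficient and 1 of 4 Sting gt/gt mice, and both high Fcgr2b-/- mice were among the 10. Ube2c, as log2 over the 75th percentile of the array, ran from -2.79 to -2.13 in the 6 and from -1.36 to -0.34 in the 10, with no overlap. It was the 1 member of 41 tested whose values did not overlap, a share below the 3.21% of all tested probes, so that the split is not a result about the members. Cenpe, the kinetochore motor that carries chromosomes to the spindle equator, stood at 0.96, 0.94, -1.0 and -0.91 in the wild-type, 0.92, -1.35, 0.96 and 0.07 in the Fcgr2b-/-, -0.98, 1.82, -1.07 and 1.05 in the double-deficient and -0.62, -1.14, 0.74 and -0.54 in the Sting gt/gt mice. On the scale of the array it ran from -0.01 to 1.07 in the 6 (median 0.21) and from -2.10 to 0.17 in the 10 (median -1.69), and only Fcgr2b-/- replicate 1 among the 10 reached the 6. Nusap1, which bundles spindle microtubules, had medians of -1.66 and -3.13 with overlap, and stood at 1.6, 0.59, -1.44 and -0.75 in the wild-type, 1.73, -2.06, 0.02 and 0.12 in the Fcgr2b-/-, -1.1, 1.4, -0.95 and 0.30 in the double-deficient and -0.09, -1.45, 0.24 and -1.58 in the Sting gt/gt mice. Since a measured value divided the mice here, these ranges are a description without a test, and Ube2c and Cenpe were singled out after their values were seen. With Y-linked signal as a covariate, the median Fcgr2b-/- minus wild-type difference of the 42 members was 0.32.

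**Figure D5:**
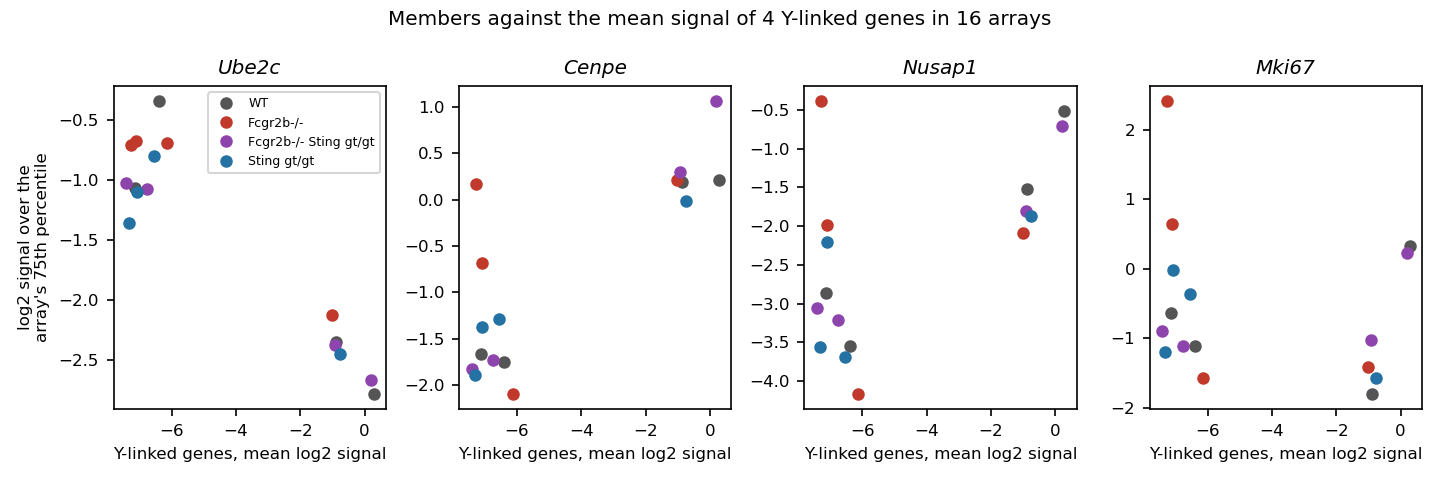
The log2 signal of 4 members over the 75th percentile of each array (vertical) is drawn against the mean log2 signal of 4 Y-linked genes (horizontal), with a point for each of 16 mice coloured by genotype. Ube2c falls into 2 groups that do not overlap (-2.79 to -2.13 and -1.36 to -0.34), Cenpe is higher on the right with Fcgr2b-/- replicate 1 as the exception on the left, and Nusap1 and Mki67 overlap.

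Other genes of the cell cycle, 90 in all and listed by role, gave no call in any comparison. Between Fcgr2b-/- and wild-type mice the 43 other mitotic genes had a median difference of 0.36, with 37 higher, and their score was 1.09, 0.01, -0.24 and 0.73 in the Fcgr2b-/- mice, so that the same 2 mice were highest. The 18 origin and fork factors had a median of 0.24 and a score of 0.57 and 0.28 in those mice. E2F and MuvB factors, which regulate these promoters, had a median of 0.10, and G1 cyclins with their kinases had 0.10. Of the genes tested in the Fcgr2b-/- comparison, 1 of 34 other mitotic genes, 2 of 9 Cdk inhibitors and p53 targets, 1 of 7 G1 genes, none of 17 origin and fork factors and none of 11 E2F and MuvB factors had an unadjusted p under 0.05, all of them higher, beside the 3.35% of all probes.

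Espl1, the separase that cuts cohesin at anaphase, came closest, with a difference of 1.93 ± 0.58 between Fcgr2b-/- and wild-type (adjusted p = 0.791). Its level over the 75th percentile was -0.80, -2.09, -3.2 and -1.84 in the Fcgr2b-/- and -2.48, -5.08, -4.53 and -3.56 in the wild-type mice. Replicates 1, 2 and 4 lay above every wild-type mouse, and replicate 3 did not. Cdkn1c, the Cdk inhibitor p57, was 4.72, 4.46, 3.78 and 4.54 against 3.06, 2.66, 3.47 and 3.91, a difference of 1.1 ± 0.37 (adjusted p = 1). Cdkn1a, or p21, differed by 0.81 ± 0.34 (adjusted p = 1). These inhibitors restrain the kinases that the mitotic members need, and their list scored 0.91 and 1.05 in Fcgr2b-/- replicates 1 and 4 against -0.13 to 0.20 in the wild-type mice. Cdkn2a, which encodes p16 and is named after its values were seen, accounts for much of this score, with 4.89 and 5.44 in those mice over a wild-type mean that was not well above background. It was above background on 3 arrays and was not tested. The median of the list was 0.54 and 0.70 in those mice and -0.20 to 0.14 in the wild-type mice.

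Between double-deficient and Fcgr2b-/- mice the other genes with the lowest p included Uhrf1, which keeps DNA methylation through replication (-1.48 ± 0.57), and Cdca8, or borealin (-0.90 ± 0.36), both with an adjusted p of 1. Uhrf1 was 0.82, -2.01, -2.46 and -0.36 in the Fcgr2b-/- and -2.27, -2.79, -2.07 and -2.79 in the double-deficient mice, again with replicates 1 and 4 apart from the rest. In Sting gt/gt against wild-type mice, Cenpm (-1.05 ± 0.39), Cdkn2c (-0.57 ± 0.25) and Ccnd2 (1.07 ± 0.49) led, with an adjusted p of 0.732 each. Between double-deficient and wild-type mice no other gene had an unadjusted p under 0.05, and the lowest were those of Cdkn1c (0.50 ± 0.37), Kif18a (0.71 ± 0.57) and Espl1 (0.58 ± 0.58), with an adjusted p of 1. Between double-deficient and Sting gt/gt mice they included those of Cdkn2c (0.69 ± 0.25) and Cdkn2b (-0.97 ± 0.41), with an adjusted p of 0.885. For the interaction, Btg2 (-1.34 ± 0.51) and Ccnd2 (-1.79 ± 0.69) were among the genes with the lowest p, with an adjusted p of 0.661 each.

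The promoter letters were set beside the differences. The median Fcgr2b-/- minus wild-type difference was 0.53 in the 26 members with a CHR match and 0.16 in the 10 without, which are Mcm3, Mcm6, Mcm7, Tyms, Pcna, Melk, Bub1, Mad2l1, Nuf2 and Nusap1. Melk (1.08) and Bub1 (1.21), 2 of the largest, are among those without. For CCAAT the medians were 0.45 with and 0.52 without, and for both motifs together 0.47 and 0.46. These medians are descriptive and were not tested.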

How the data were processed

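Per the file headers and the submitters' processing notes, the authors hybridised 100 ng of Cy3-labelled kidney RNA per mouse to Agilent one-colour arrays and extracted the scans with Agilent Feature Extraction 11.0, and the deposited processed signal intensity is background-corrected. A value table on the log2 scale was deposited too, in which arrays of 1 replicate number share 1 distribution. Its columns matched their own arrays (lowest correlation 0.9999) and its centring is not stated.

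From the scanner files (limma 3.58.1, R 4.3.3, Python 3.11.15), controls and spots marked as outliers were dropped, spots of a probe averaged, and each array's 75th percentile subtracted from its log2 intensity. Of 56605 probes 32994 (58.3%) had 1 gene symbol through RefSeq accessions. The brightest probe stood for a gene. Groups followed the labels, 4 mice each. lmFit and eBayes ran over all 16 arrays with a mean per genotype. Alternatives were normexp, quantile and median scaling, the authors' table, filters, the Mann-Whitney test, slide, replicate and animal blocks, a Y-linked covariate, and leaving out each array. The fit was tested on simulated data. Named members were the 2 brightest of each role, the 3 with the largest differences per comparison and those with an unadjusted p under 0.05, and named other genes the 3 with the lowest p, of which some are not reported here. Members and lists were chosen with earlier results of these data known. The 75th percentile of brightness was 276 to 656.9 and 28441 to 35564 probes per array were well above background. The number of arrays limits the precision. Nothing states that the mice were of separate litters, so p-values measure the spread between these samples.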

Additional observations from a re-analysis of the deposited data

Results flagged for a closer look

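In 11 of the 172 groups of 4 mice examined over the members, 1 mouse lay far from the other three, where chance gives about 1 in 20. Values are log2 over the 75th percentile of the array. Pcna was 3.42 in wild-type replicate 1 and 3.0 to 3.04 in the others. In wild-type replicate 2, Foxm1 was -5.46 (others -3.68 to -3.46), Melk -6.24 (-4.59 to -4.25), Bub1b -5.70 (-4.44 to -4.19), Nuf2 -4.87 (-3.85 to -3.71) and Kif23 -5.55 (-3.51 to -3.23), all not well above background there. In double-deficient replicate 2, Ccnb1 was -2.08 (others -3.36 to -3.26) and Mki67 was 0.22 (-1.11 to -0.89). Aurkb was -2.93 in double-deficient replicate 3 (others -4.66 to -4.64) and -6.39 in the array labelled Sting-ko replicate 4 (others -4.94 to -4.78). Ube2c was -2.13 in Fcgr2b-/- replicate 3 (others -0.71 to -0.68), the 1 mouse of that group with Y-linked RNA. The effect of Sting loss on Foxm1 was 0.87 without and -0.57 with loss of Fcgr2b, a difference of 1.44, and the interaction in limma had an adjusted p of 0.661.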

How the results depend on the processing

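No member was called in any comparison under any alternative run, with 1 exception. Aurkb was called between double-deficient and Sting gt/gt mice by the Mann-Whitney test without adjustment, with the 2-fold threshold kept. The median Fcgr2b-/- minus wild-type difference of the members was positive in 29 of 30 alternatives. Leaving out both high Fcgr2b-/- arrays, a choice made after seeing the data, turned it to -0.27, the double-deficient minus Fcgr2b-/- median to 0.24 and the interaction to 0.61. Leaving out 1 array at a time gave 0.104 to 0.831 for Fcgr2b-/- minus wild-type, -0.921 to -0.122 for double-deficient minus Fcgr2b-/-, -0.26 to 0.031 for double-deficient minus wild-type, -0.599 to -0.234 for Sting gt/gt minus wild-type, 0.089 to 0.427 for double-deficient minus Sting gt/gt and -0.479 to 0.211 for the interaction. The double-deficient minus wild-type median was positive in 4 of 30 alternatives and the interaction in 7 of 29, so neither has a settled sign. With the replicate block the medians stayed at 0.503, -0.568, -0.106, -0.445, 0.297 and -0.168, and no member was called. Replicate numbers do not pair the mice, since 11 of 24 same-numbered pairs correlated above 0.1 (-0.60 to 0.69). Of all probes 18 were called between Fcgr2b-/- and wild-type mice, against 3 with the shared animal numbers as a random block and 0 to 37 on leaving out 1 array. Another scaling moved the median of all probes by up to 0.282. Dim probes limit Ttk, Bub1, Bub1b, Melk, Kif11 and Ndc80, of which most arrays gave no signal well above background.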
